A study of Mus musculus with 8 samples.

Results

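Globin and red-cell transcripts were followed in liver RNA through 7 genes, of 54309 in the count table: the adult alpha globin genes Hba-a1 and Hba-a2, the adult beta globin genes Hbb-bs and Hbb-bt, the membrane transporter gene Slc4a1, the heme synthesis gene Alas2 and the tripartite motif gene Trim10. All 7 were found by Ensembl identifier through the symbols of the authors' deposited table. The livers came from male C57BL/6 mice that ate a fructose, palmitate and cholesterol diet for 16 weeks, which brings on steatohepatitis, an inflamed fatty liver. Every mouse also received an antibody by intraperitoneal injection between weeks 8 and 16, either IgG as the control or anti-CD47 at 200 µg per mouse. CD47 is a surface protein, carried by red cells among others, that restrains engulfment by macrophages through their receptor SIRPα. Groups of 7 to 8 mice are described, of which 4 libraries per treatment were sequenced, called IgG 1 to 4 and antiCD47 1 to 4. No untreated mice and no mice on normal chow were among the samples analysed here, and the age of the mice and whether blood was flushed from the livers are not stated in the sources used here.

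Mature mammalian red cells have no nucleus, and the RNA they carry is what remains from the erythroblast and reticulocyte stages, in which globin mRNA comes to dominate. Hemoglobin is assembled from alpha and beta globin chains, each of which holds a heme group. In the adult mouse erythroblasts mature in the bone marrow and spleen, and old red cells are taken up by macrophages of the spleen and liver.

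The globin genes exist as near-identical copies, and few coding bases set the members of a pair apart, which limits how reads can be divided between them. In the GENCODE M21 transcripts (GRCm38), Hba-a1 and Hba-a2 each had 426 coding bases before the stop codon and differed at 1 of them, C381T. Hbb-bs and Hbb-bt had 441 coding bases each and also differed at 1, C417T. Positions are counted from 1 at the A of the start codon, with the base of Hba-a1 or Hbb-bs first. The 50 coding bases around each difference are given 5′ to 3′, with the differing base in capitals, for bases 356 to 405 of the alpha copies and 392 to 441 of the beta copies.
Hba-a1: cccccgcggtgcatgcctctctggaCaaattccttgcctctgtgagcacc
Hba-a2: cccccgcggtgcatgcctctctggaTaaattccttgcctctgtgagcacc
Hbb-bs: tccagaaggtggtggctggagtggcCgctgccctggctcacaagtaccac
Hbb-bt: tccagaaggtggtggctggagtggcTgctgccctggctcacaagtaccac
Over whole transcripts, untranslated ends included, 74.5% of the 100-base windows of Hba-a2 were also present in Hba-a1, and 56.5% of those of Hba-a1 in Hba-a2. For the beta pair 62.6% of the windows of Hbb-bs were in Hbb-bt and 54.8% the other way. Hba-a1 and Hbb-bs shared 0 windows of that length. The sum over alpha copies or over beta copies does therefore not depend on the split, while each copy's own value is uncertain.

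Because the 7 genes were higher together in antiCD47 livers, the bases before their start sites were also compared. The RefSeq promoter table (GRCm38.p6) held 6 of the 7 genes, all but Slc4a1. Shown are the 220 bases before the start of Hba-a1 (chr11:32283452-32283671, plus strand), Hbb-bs (chr7:103827929-103828148, minus strand), Hbb-bt (chr7:103813924-103814143, minus strand), Alas2 (chrX:150547197-150547416, plus strand) and Trim10 (chr17:36869354-36869573, plus strand). Capitals mark the words searched on both strands: AGATAA and TGATAA, each also with G as its last letter, which GATA factors recognise, CACCC, which Klf-type factors recognise, CCAAT, and the TATA word TATAAA, also with G as its last letter.
Hba-a1: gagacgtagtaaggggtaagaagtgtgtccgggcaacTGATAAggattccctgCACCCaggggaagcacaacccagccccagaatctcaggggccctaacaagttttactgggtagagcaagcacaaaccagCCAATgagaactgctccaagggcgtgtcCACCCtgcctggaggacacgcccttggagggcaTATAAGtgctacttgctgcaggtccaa
Hbb-bs: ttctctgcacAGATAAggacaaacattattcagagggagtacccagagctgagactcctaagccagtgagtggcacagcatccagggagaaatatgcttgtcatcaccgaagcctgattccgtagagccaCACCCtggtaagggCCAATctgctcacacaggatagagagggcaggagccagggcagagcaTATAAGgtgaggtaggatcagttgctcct
Hbb-bt: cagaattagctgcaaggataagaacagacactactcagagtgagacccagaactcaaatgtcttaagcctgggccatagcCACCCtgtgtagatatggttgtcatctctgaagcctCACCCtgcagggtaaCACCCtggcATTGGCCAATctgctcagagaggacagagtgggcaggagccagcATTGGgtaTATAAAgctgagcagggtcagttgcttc
Alas2: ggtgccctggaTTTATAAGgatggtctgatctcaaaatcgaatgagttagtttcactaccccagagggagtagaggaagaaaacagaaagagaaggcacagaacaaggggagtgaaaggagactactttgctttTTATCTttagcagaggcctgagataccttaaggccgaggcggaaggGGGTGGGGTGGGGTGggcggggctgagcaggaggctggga
Trim10: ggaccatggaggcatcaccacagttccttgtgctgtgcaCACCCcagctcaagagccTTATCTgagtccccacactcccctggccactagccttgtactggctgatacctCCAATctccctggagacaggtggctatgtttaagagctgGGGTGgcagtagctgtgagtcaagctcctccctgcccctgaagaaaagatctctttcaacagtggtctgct
The window of Hba-a2 matched that of Hba-a1 at 247 of 247 aligned bases. In the 250 bases before the start, a GATA word and CACCC stood together in Hba-a1, Hba-a2, Hbb-bs, Alas2 and Trim10, as in 11.8% of 32851 promoters of this length. The window of Hbb-bt held 3 CACCC words and none of the 4 GATA words. CCAAT stood in all 6 windows but that of Alas2 (33.8% of promoters), and 2 of its 3 matches in Hbb-bt lie next to each other on opposite strands. A TATA word lay 22 to 30 bases before the start in the 4 globin genes (a TATA word anywhere in 17% of windows). The 3 CACCC matches of Alas2 lie side by side on the minus strand. These are matches of letters only.

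Total counts were 43691472 to 55477484 per library, and the hepatocyte mRNA Alb, a defining marker of the labelled tissue, stood at 42470 ± 1681 CPM (counts per 1000000 of the TMM-scaled library size) in IgG (SD, n = 4). By edgeR's quasi-likelihood test (two-sided, Benjamini-Hochberg adjusted p under 0.05), 1678 of 15472 genes differed between the treatments (10.8%), 842 higher (5.44%) and 836 lower (5.4%) in antiCD47. That number hung on single libraries. It was 174, 92 and 2 when IgG 1, IgG 3 or IgG 4 was left out, and 3630, 756 and 21 when antiCD47 1, 2 or 3 was. The labels do not tie a library to an animal, so the p-values measure the spread between these libraries.

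All 7 red-cell genes were higher in antiCD47 than in IgG livers and passed the test, where 5.44% of all genes did in that direction. In all 7 the lowest antiCD47 library lay above the highest IgG library, as for 9.51% of genes (19.6% counting either direction). Their median log2 fold change was 1.57, against -0.006 over all genes tested. Trim10 met the filter on low counts only through its antiCD47 libraries. A gene admitted that way could hardly be called lower, so Trim10 adds no support to the comparison with these shares. By point estimate the change was about 3-fold for the globins, 5.59-fold and 5.65-fold for Slc4a1 and Trim10, and 1.37-fold for Alas2. None of the ratios to the globins tested below passed after adjustment. In whole-liver RNA, more red cells or precursors and more of these RNAs per cell cannot be told apart.

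**Figure D1:**
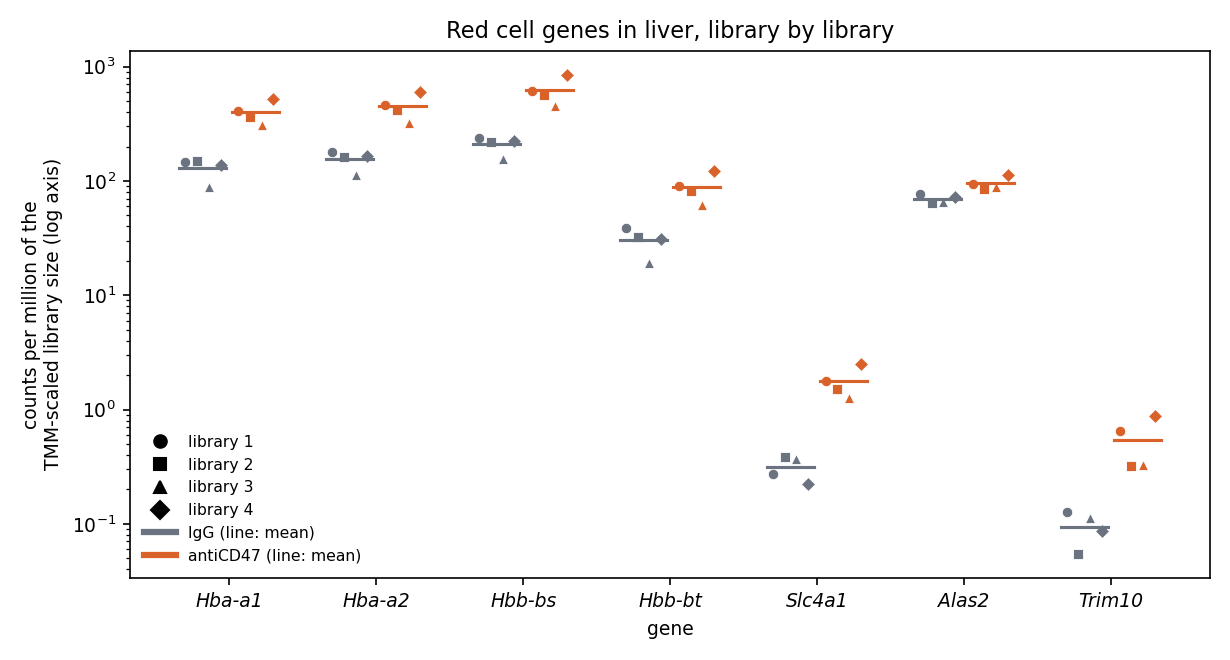
Level of each of the 7 genes in each library, in CPM of the TMM-scaled library size on a log axis. Grey symbols are IgG and orange symbols antiCD47 libraries, the shape gives the library number and each line is the mean of 4. The orange symbols lie above the grey ones for every gene, with the narrowest gap for Alas2, and antiCD47 4 is the highest in each gene.

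Hbb-bs, the main adult beta globin gene of this strain, was at 238, 218, 156 and 223 CPM in IgG 1 to 4 and at 618, 569, 449 and 852 CPM in antiCD47 1 to 4. Among the IgG libraries IgG 3 was the lowest, and among the antiCD47 libraries antiCD47 4 was the highest. Its log2 fold change was 1.57 ± 0.20 (SE; edgeR adjusted p = 0.0132). Hbb-bt, the minor beta gene, was at 38.95, 32.2, 19.4 and 31.3 CPM in IgG and at 91.2, 81.7, 62.1 and 122 CPM in antiCD47. It changed by 1.55 ± 0.24 (edgeR adjusted p = 0.016).

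The alpha genes were higher in antiCD47 by similar factors. Hba-a1 was at 147, 149, 89.1 and 139 CPM in IgG 1 to 4 and at 407, 361, 311 and 523 CPM in antiCD47 1 to 4, a log2 fold change of 1.61 ± 0.20 (edgeR adjusted p = 0.0132). Hba-a2 was at 179, 162, 113 and 166 CPM and at 460, 418, 319 and 601 CPM, a change of 1.53 ± 0.20 (edgeR adjusted p = 0.0147). With the copies summed before the fit, so that the split of reads did not matter, the change was 1.57 ± 0.20 for both alpha genes (edgeR adjusted p = 0.0142) and 1.57 ± 0.20 for both beta genes (edgeR adjusted p = 0.015).

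Together the 4 globin genes took 0.0618, 0.0582, 0.0415 and 0.0622% of all counts in IgG 1 to 4 and 0.151, 0.128, 0.104 and 0.207% in antiCD47 1 to 4. The counting error of these shares was small: the exact 95% binomial interval was 0.0409 to 0.0421% in IgG 3, the library with the lowest share, and 0.206 to 0.209% in antiCD47 4, the one with the highest. The means were 0.0559 ± 0.00978% and 0.148 ± 0.0442% (SD, n = 4 each), a difference of 0.0916 percentage points (exact permutation p = 0.0286, two-sided, the smallest that 4 against 4 allows). Set against the summed counts of 6 hepatocyte genes in place of all counts, the globin counts were 0.912 ± 0.195% and 2.55 ± 0.801% of that sum.

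**Figure D2:**
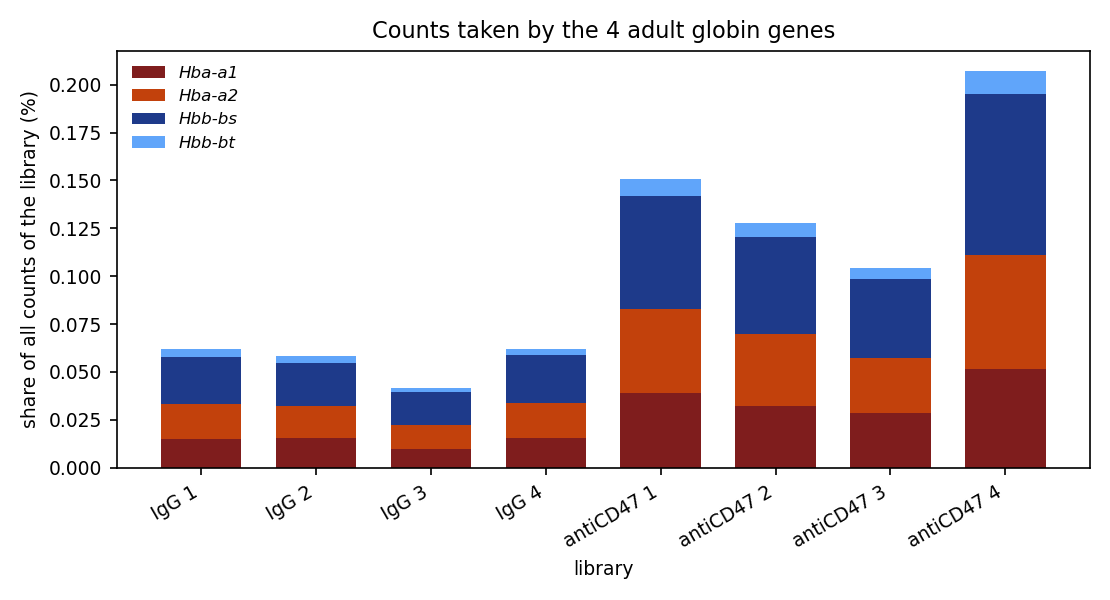
Share of all counts taken by the 4 adult globin genes in each library, in percent, with the part of each gene stacked in color. The bars of IgG 1 to 4 stay at or below 0.0622%, those of antiCD47 1 to 4 lie between 0.104 and 0.207%, and the proportions of the colors are alike in all 8 bars.

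The mix of globin transcripts varied little from library to library. The alpha genes made up 54.1, 55.4, 53.5 and 54.5% of globin counts in IgG 1 to 4 and 55.0, 54.5, 55.2 and 53.6% in antiCD47 1 to 4. The log2 ratio of alpha to beta counts was 0.25 ± 0.05 in IgG and 0.27 ± 0.04 in antiCD47 (SD over 4 libraries of each; the exact permutation p was 0.8, and 0.96 adjusted over the 6 ratios tested between members). Hbb-bt stood at 144 ± 16.6 counts per 1000 counts of Hbb-bs in IgG and at 143 ± 3.81 in antiCD47 (exact permutation p = 0.971). Hba-a2 stood at 1195 ± 74.2 counts per 1000 of Hba-a1 in IgG and at 1117 ± 62.0 in antiCD47 (exact permutation p = 0.2), with the split between these copies uncertain.

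Globins of embryonic red cells were close to absent. Hba-x, Hbb-bh1 and Hbb-bh2 had 0 counts in all 8 libraries, and Hbb-y had 1 count, in antiCD47 1. Of the theta globin copies, Hbq1a had 2 counts in all and Hbq1b 4 over the IgG and 10 over the antiCD47 libraries. None of these 6 passed the filter on low counts.

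Slc4a1 encodes band 3, the chloride and bicarbonate exchanger that also anchors the red-cell skeleton. It had 13, 21, 20 and 13 counts in IgG 1 to 4 and 90, 75, 62 and 108 counts in antiCD47 1 to 4, or 0.313 ± 0.0767 CPM against 1.76 ± 0.533 CPM (SD, n = 4). The lowest antiCD47 library was 3.32 times the highest IgG library, the widest gap of the 7 genes. The log2 fold change was 2.48 ± 0.29 (edgeR adjusted p = 0.0129), at rank 7 by p among all genes that were higher in antiCD47. Trim10, a tripartite motif gene of maturing erythroblasts, had 6, 3, 6 and 5 counts in IgG and 33, 16, 16 and 38 in antiCD47. Its log2 fold change was 2.50 ± 0.45 (edgeR adjusted p = 0.0183).

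Alas2 encodes the erythroid form of the enzyme that starts heme synthesis. It was at 76.5, 64.3, 65.9 and 71.9 CPM in IgG 1 to 4 and at 93.3, 85.95, 88.1 and 113 CPM in antiCD47 1 to 4. The groups did not overlap, but the lowest antiCD47 library was only 1.12 times the highest IgG library. The log2 fold change was 0.45 ± 0.10 (edgeR adjusted p = 0.0279). It became 0.27 with library totals in place of TMM (edgeR adjusted p = 0.111), a setting that moved the median of all genes to -0.19. Exons of Alas2 overlap those of Apex2, a DNA repair gene on the opposite strand, over 311 of 2403 exon bases in GENCODE M21, and the sources used here do not say whether reads were counted by strand. Apex2 was at 7.74 ± 0.35 CPM in IgG and 7.83 ± 1.02 CPM in antiCD47 (edgeR adjusted p = 0.921).

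**Figure D3:**
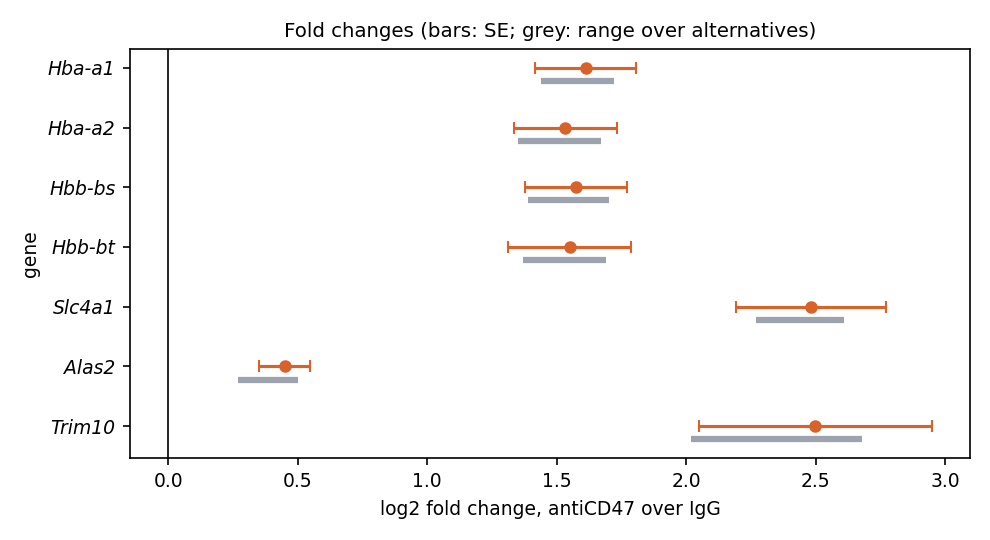
Log2 fold change of antiCD47 over IgG for each gene, as orange points with bars of 1 standard error, and in grey the range of the fold change over the alternative settings and left-out libraries. The 4 globins lie between 1.53 and 1.61, Slc4a1 and Trim10 near 2.5, and Alas2 at 0.45, with all ranges to the right of 0.

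Every fold change kept its direction in all 129 pairs of a gene and an alternative, and 14 of these lost the call. As the treatments did not overlap for any of these genes, leaving out a single library could hardly turn a direction. Without IgG 4, all 7 missed the threshold (edgeR adjusted p = 0.0583 to 0.0776), though all 7 had an unadjusted p under 0.05. Alas2 and Trim10 also missed it without IgG 1, IgG 3 or antiCD47 3; over those 4 fits the edgeR adjusted p was 0.0599 to 0.0796 for Alas2 and 0.0529 to 0.0655 for Trim10. In the authors' deposited table, which does not state its reference group, the log2 fold changes of all 7 genes had a positive sign, and the adjusted p was 8.45e-13 for Hba-a1 and 0.00138 for Alas2.

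Per kilobase of the longest coding transcript, the order of levels in IgG was Hbb-bs (333 CPM per kilobase), Hba-a2 (280), Hba-a1 (187), Hbb-bt (43.3), Alas2 (34.2), Slc4a1 (0.0689) and Trim10 (0.0422). In antiCD47 the order was the same, at 990, 812, 573, 127, 46.7, 0.388 and 0.243 CPM per kilobase. In both treatments Alas2 thus stood far above Slc4a1 by this length-scaled level. The lengths come from an annotation of an older build than the authors', and the order of the 2 alpha copies rests on the uncertain split.

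Ratios to the globin counts of the same library do not depend on scaling. Alas2 had 127, 115, 174 and 128 counts per 1000 globin counts in IgG 1 to 4 and 59.2, 60.1, 77.2 and 53.98 in antiCD47 1 to 4, a log2 difference of -1.11 with no overlap of the groups. Slc4a1 went the other way, from 0.453, 0.681, 0.985 and 0.401 counts per 1000 globin counts to 1.12, 1.06, 1.11 and 1.19, a difference of 0.89. For both the exact permutation p was 0.0286, the smallest that 4 against 4 allows, and 0.0858 adjusted over the 6 ratios. On the log2 scale the SD of this Slc4a1 ratio was 0.07 in antiCD47 and 0.58 in IgG, and IgG 3 nearly reached the antiCD47 values. Trim10 had 0.189 ± 0.084 and 0.336 ± 0.095 counts per 1000 globin counts (exact permutation p = 0.114, 0.229 adjusted), with overlapping groups. None of the 6 ratios passed after adjustment. With 4 against 4, passing would need several of the 6 ratios at the smallest possible p. A ratio without overlap can thus miss the threshold, as those of Alas2 and Slc4a1 did. Missing it does not show that these genes changed by the same factor as the globins.

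**Figure D4:**
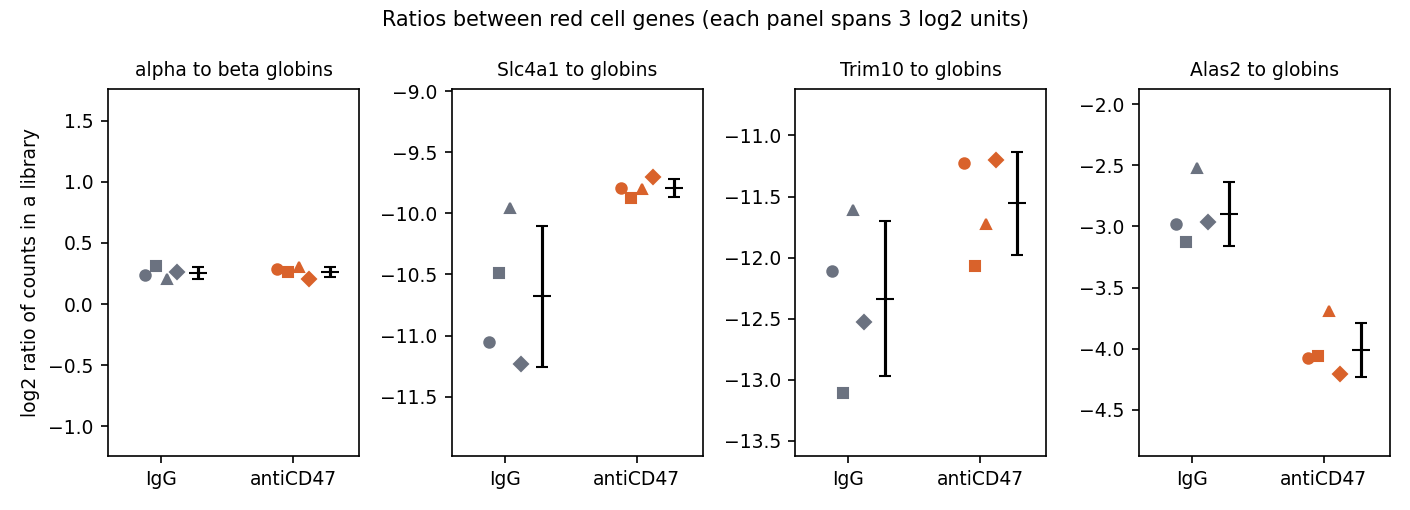
Log2 ratio of counts within each library for alpha to beta globins and for Slc4a1, Trim10 and Alas2 each to the 4 globins. Every panel spans 3 log2 units, grey symbols are IgG and orange antiCD47 libraries, and black bars give the mean and SD of 4. The alpha to beta ratio lies flat at 0.25 and 0.27, Alas2 is lower and Slc4a1 higher in antiCD47, and Trim10 overlaps.

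Within the antiCD47 group the genes shared the highest libraries but not the lowest. antiCD47 4 was the highest and antiCD47 1 the next for all 7. The lowest was antiCD47 3 for the globins and Slc4a1, and antiCD47 2 for Alas2 and Trim10. In IgG, IgG 3 was the lowest for the 4 globins but not for Slc4a1, Alas2 or Trim10. After each treatment's mean was taken off, Pearson r between log2 CPM of 2 members was 0.963 to 0.996 among the globins (8 libraries, a description only). With a globin it was 0.299 to 0.422 for Slc4a1, 0.681 to 0.796 for Alas2 and 0.409 to 0.58 for Trim10.

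By likeness of log2 CPM to the mean z-score of the 7 genes over the 8 libraries, the nearest genes included A130010J15Rik, Gdpgp1, Zfp954, Tmem183a, Slc17a3, Gramd3, Epb41l4b, Cobl and Pi16, with r from 0.97 down to 0.938. Apart from Pi16 (log2 1.45) and Cobl (0.77) their fold changes were small, 0.16 to 0.39. After the treatment means were taken off, r of these 9 ranged from 0.195 for Cobl to 0.947 for Zfp954. These are descriptions over 8 libraries in 2 groups, which all share the gap between the treatments.

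Some other red-cell genes passed the test, and most did not. Of 8 other genes of the red-cell membrane and skeleton that were tested, 2 rose and none fell. Over all genes tested, 5.44% rose and 5.4% fell. The median log2 fold change of the 8 was 0.28. At an unadjusted edgeR p under 0.05, 2 were higher and 2 lower. Under scaling by library totals 2 rose, 1 (Gypc) fell and their median was 0.09. In that setting 428 of all 15472 genes rose and 3152 fell. Epb41, the protein 4.1 gene that other cells use too, rose by 0.68 ± 0.12 (edgeR adjusted p = 0.0165), from 124 ± 12.6 to 198 ± 31.1 CPM. Ank1, the red-cell ankyrin gene, was at 0.28 ± 0.47 (edgeR adjusted p = 0.709). Below the filter, Epb42, whose protein binds band 3, had 1, 1, 1 and 4 counts in IgG and 4, 7, 7 and 21 in antiCD47. Epb41 lost its call without IgG 1, IgG 3, IgG 4 or antiCD47 3.

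Of 16 other genes of late erythroid maturation tested, 3 rose and none fell, where 5.44% and 5.4% of all genes did. Their median was 0.14, and at an unadjusted edgeR p under 0.05, 6 were higher and 1 was lower. Under scaling by library totals 2 rose, 2 fell and the median was -0.05. Those that rose under TMM included the exonuclease gene Isg20 (0.99 ± 0.18, edgeR adjusted p = 0.0187), which interferon also induces, and the ubiquitin enzyme gene Ube2o (0.44 ± 0.11, edgeR adjusted p = 0.0381). Ube2o overlapped between the treatments, was at an adjusted p of 0.1 by edgeR with scaling by library totals, and kept its call only without antiCD47 1 among the left-out libraries. Isg20 lost its call without IgG 1, IgG 3, IgG 4 or antiCD47 3. Car2, a carbonic anhydrase gene of red cells and other tissues, was at -0.36 ± 0.18 (edgeR adjusted p = 0.19).

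None of 12 other heme synthesis genes passed in either direction, where 10.8% of all genes did, and their median was 0. At that share a list of 12 would hold few calls, so their absence says little about the pathway. Under scaling by library totals 3 of them, Alad and Ppox included, fell and the median was -0.19. In that setting 3152 of all 15472 genes fell. By an unadjusted edgeR p under 0.05, 2 were higher and 1 was lower, and DESeq2 called 1 in each direction. Fech, the last enzyme of the pathway, was at 0.175 ± 0.075 (edgeR adjusted p = 0.14). Alas1, the form of the first enzyme used outside red cells, was at -0.04 ± 0.26 (edgeR adjusted p = 0.933). In IgG, Fech stood at 179 ± 7.2 CPM and Alas1 at 903.5 ± 91 CPM (SD). The part of red cells in these levels was not tested.

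Of 8 regulators of early erythroid cells tested, none passed in either direction by edgeR, where 10.8% of all genes did. At that share a list of 8 would hold few calls, so their absence says little about erythroid cells. None had an unadjusted edgeR p under 0.05, DESeq2 called 0 and their median was -0.08. Gata1, Gfi1b and Myb were below the filter on low counts. Klf1, an erythroid transcription factor gene, was at -0.39 ± 0.21 (edgeR adjusted p = 0.227), Epor, the erythropoietin receptor gene, at -0.53 ± 0.38 (edgeR adjusted p = 0.353) and Tfrc, the transferrin receptor gene, at -0.06 ± 0.17 (edgeR adjusted p = 0.828). Gata1, the master regulator of the lineage, had 0 counts in every IgG library and 1, 2, 4 and 1 counts in antiCD47 1 to 4. Gfi1b had 1 count over the IgG and 1 over the antiCD47 libraries, and Myb had 14 and 16. Epo, the erythropoietin gene, had 0 counts in all 8 libraries, which for a library of 43691472 counts allows up to 3 counts, or 0.0687 CPM of the raw total (counting error only).

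**Figure D5:**
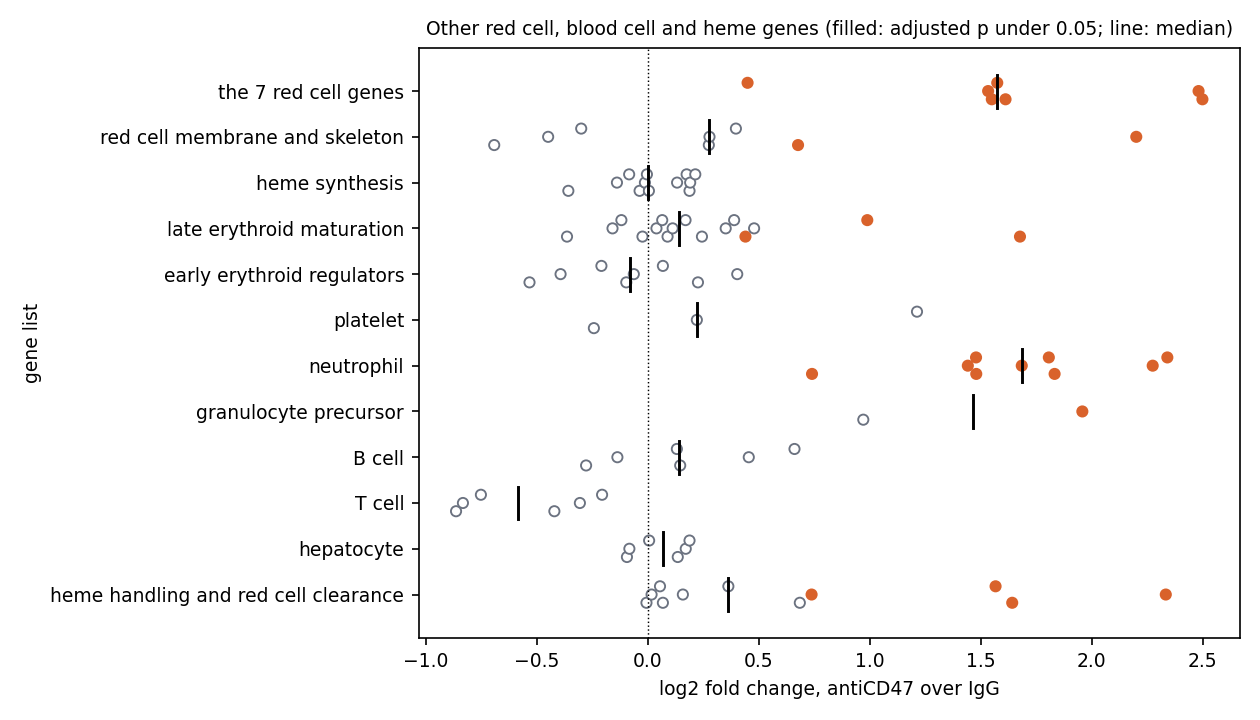
Log2 fold change of antiCD47 over IgG for each tested gene of the lists named at the left, the 7 red-cell genes set apart in the top line. Filled circles passed an adjusted p of 0.05, open circles did not, and black lines give medians. The 7 genes and the neutrophil list (median 1.68) stand to the right, while heme synthesis, early erythroid and hepatocyte genes scatter around 0.

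Of the lists of other blood cells, only the neutrophil and granulocyte precursor lists held called genes, all higher in antiCD47. Over all genes tested 5.44% were called higher. All 9 tested neutrophil genes rose (8 with library totals, without Csf3r), with a median of 1.68, among them the calprotectin genes S100a8 (2.34 ± 0.38, edgeR adjusted p = 0.016) and S100a9 (2.28 ± 0.35, edgeR adjusted p = 0.016), and 7 others (Cxcr2, Csf3r, Retnlg, Mmp8, Mmp9, Il1r2 and Clec4d) at 0.74 to 1.83. The summed level over 11 listed neutrophil genes was 7.57 to 9.91 CPM in IgG and 18.2 to 38.1 CPM in antiCD47. Among the antiCD47 libraries S100a8 was highest in antiCD47 2 and lowest in antiCD47 4, where the red-cell genes were highest. Over the 8 libraries, r with the mean z-score of the red-cell genes was 0.793 for S100a8 and 0.794 for S100a9. After the treatment means were taken off it was -0.48 and -0.49 (a description only). Of 8 granulocyte precursor genes 2 were tested and Ngp rose (1.96 ± 0.54, edgeR adjusted p = 0.0465; lost without any 1 library but antiCD47 4), while Elane had 24 counts over the IgG and 61 over the antiCD47 libraries and Mpo 23 and 48. The summed level of the 8 was 0.743 to 2.11 and 1.57 to 5.03 CPM. Ngp, and Il1r2 of the neutrophil list, met the filter on low counts only through the antiCD47 libraries, so they could hardly have been called lower. None of 3 tested platelet genes (Pf4 at -0.24 ± 0.20, Ppbp at 1.21 ± 0.48), 6 B cell genes or 6 T cell genes passed by edgeR; an unadjusted p under 0.05 was reached by 1 platelet and 1 B cell gene, and DESeq2 called 0. The summed platelet level over 10 genes was 4.51 to 5.84 CPM in IgG and 5.02 to 7.37 CPM in antiCD47. The part of other blood cells in the red-cell result was not tested. S100a8 lost its call without IgG 1, IgG 3, IgG 4 or antiCD47 3 and S100a9 without IgG 3, IgG 4 or antiCD47 3. Of the 9 neutrophil calls, 1 was left without IgG 1, 6 without IgG 2, 0 without IgG 3, IgG 4 or antiCD47 3, and 4 without antiCD47 2; all 9 had an unadjusted edgeR p under 0.05 in each of these fits.

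Of 11 genes that handle heme and red-cell remains, 4 rose and none fell, where 5.44% and 5.4% of all genes did. They were Hmox1, which breaks down heme (1.64 ± 0.31, edgeR adjusted p = 0.0209), and the hemoglobin scavenger receptor gene Cd163 (2.33 ± 0.50, edgeR adjusted p = 0.0265). The macrophage factor gene Spic (1.57 ± 0.365, edgeR adjusted p = 0.0311) and the haptoglobin gene Hp (0.74 ± 0.21, edgeR adjusted p = 0.0485) were the others. Over the 8 libraries, r with the mean z-score of the 7 red-cell genes was 0.691 for Hmox1, 0.691 for Cd163 and 0.696 for Spic. After the treatment means were taken off it was -0.62, -0.579 and -0.431 (a description only). With library totals Hp missed the threshold (edgeR adjusted p = 0.0536). All 4 lost the call without IgG 1, IgG 3, IgG 4 or antiCD47 3, Spic also without IgG 2 and Hp also without antiCD47 2. The iron exporter gene Slc40a1 was at 0.36 ± 0.14 (edgeR adjusted p = 0.117), and Hamp, the hepcidin gene, rose by 1.14 ± 0.27 (edgeR adjusted p = 0.0315), with overlapping groups and no call without IgG 1, IgG 3, IgG 4, antiCD47 2 or antiCD47 3.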

How the data were processed

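Liver mRNA (poly(A) RNA, TruSeq libraries) was measured in 4 IgG and 4 antiCD47 libraries. The deposited values are whole numbers per Ensembl gene, treated here as estimated counts, for 54309 genes, of which 27899 had no count. The submitters' processing notes name Salmon 1.3.0, DESeq2 1.32.0 and GRCm39 without saying what each did. The authors' deposited comparison table holds, per the file headers, a mean normalized signal, a log2 fold change, p-values (raw and adjusted) and a score named rank; only its fold changes and adjusted p-values were compared, and its reference group is not stated. Totals of 43691472 to 55477484 counts bound the precision; no 2 libraries of a group agreed within sampling noise (smallest chi-square per degree of freedom 25.963).

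Genes were filtered with filterByExpr, scaled by TMM and tested with edgeR 4.0.16 (R 4.3.3; quasi-likelihood, Benjamini-Hochberg over 15472 genes, threshold 0.05); DESeq2 1.42.0, limma 3.58.1 and other settings, 19 in all, were alternatives. The biological coefficient of variation was 16.7%. On simulated counts for this comparison (15270 genes) the fit recovered 32.8% of genes changed 1.5-fold, 75.8% at 2-fold and 95.2% at 4-fold, with 6.38% false calls. Globin shares and ratios (0.5 added to each sum) were compared by exact permutation tests (scipy 1.17.1), two-sided. Symbols came from the reference for 51484 genes and from the deposited table for 17; 1 listed erythroid gene matched none and is not reported. Sequences are from RefSeq and GENCODE annotations of GRCm38, an older build than the counts.

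The members and the gene lists were chosen with earlier results of these data known. Named were all members, called genes of each list (values for at most 4, by p), a set of defining genes whatever their result, and the 10 genes nearest the members. Some genes that this rule names are not reported here.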

Additional observations from a re-analysis of the deposited data

Results flagged for a closer look

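Among the 4 IgG libraries, IgG 3 stood apart for Hba-a1: it was at 89.1 CPM, while the others lay between 139 and 149 CPM. Its gap to the nearest library was 0.843 of the group's range, above Dixon's 95% critical value for 4 samples. It was the only one flagged of 28 groups of values tested, and chance flags about 1 group in 20. The other 3 globin genes were also lowest in IgG 3, at 113 CPM for Hba-a2, 156 for Hbb-bs and 19.4 for Hbb-bt, each short of that critical value. Without IgG 3 the log2 fold change of Hba-a1 was 1.47 (edgeR adjusted p = 0.0337), against 1.61 with it.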

How the results depend on the processing

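The 7 red-cell genes kept their direction under all 19 alternatives that gave a value, which a left-out library could hardly change as the treatments did not overlap. Of 129 calls 14 were lost, 13 with a library left out and Alas2 under library totals. Members called ranged from 0 to 7 with a library left out, genes of the other lists from 0 to 26 (20 with all), and all genes from 2 to 3630, against 1678 with all libraries. All genes called numbered 3580 with library totals (428 higher, 3152 lower), 3174 with DESeq2 and 4331 with limma voom and quality weights; upper quartile scaling gave 634 higher and 969 lower against 842 and 836. The globin share differed by 0.0793 percentage points in the median (exact permutation p = 0.0571), and by 0.0717 to 0.106 with a library left out, where 0.0571 is the smallest exact permutation p possible. The log2 difference in Hbb-bt to Hbb-bs ran from -0.072 to 0.063 with a library left out, turning to 0.063 without IgG 1, 0.013 when IgG 2 was left out and 0.014 if antiCD47 3 was. The alpha to beta difference ran from -0.007 to 0.03, turning to -0.007 without IgG 3 and -0.003 without antiCD47 3. The cause of these shifts was not tested. With the replicate number as a block, 2425 genes and all 7 members were called; the replicate block is no pairing, since deviations of same-numbered libraries correlated at 0.032, 0.157, -0.023 and 0.035 and 0 of 4 IgG libraries correlated best with their own number. At 3 to 38 counts per library, Trim10 is limited by depth.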
